A study of Rattus norvegicus with 9 samples.

Results

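A set of 10 genes of joint lubrication and of hyaluronan, the large sugar polymer of synovial fluid, was followed in synovial fibroblasts, the connective tissue cells that line the joint, from rats. The genes were Prg4, Cd55, Has1, Has2, Ugdh, Cd44, Tnfaip6, Cemip, Hyal1 and Hyal2, taken by symbol from a table of 17298 genes. All 10 were found and all 10 passed a filter on low values (a mean of at least 1 FPKM over 9 libraries), as did 11372 genes in total. Has1 passed only through the control group, where it is highest: its mean was 1.1 FPKM over all 9 libraries and 0.848 FPKM without control. FPKM is a read level scaled to transcript length and to library depth, so that genes can be set side by side within a library. RNA of wild-type cells was sequenced in 3 groups of 3 libraries: IL-1β, an inflammatory cytokine, followed by culture below dermal fibroblasts held in a transwell's upper chamber (co-culture); IL-1β alone in normal culture; and normal culture without IL-1β (control). The sequenced cells were the synovial fibroblasts of the lower chamber, per the labels, and a transwell's porous membrane keeps the 2 cell types apart. None of the 9 libraries held unstimulated cells in co-culture. A difference from co-culture itself and one in the IL-1β response therefore cannot be told apart. The sources used here do not state the IL-1β dose, the timing, the age of the rats, any empty insert in the other groups or whether libraries came from separate animals. The p-values therefore cover only the variation among these libraries, possibly technical, and the co-culture comparison covers the insert and its medium as well as the dermal cells.

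Fibroblasts of the synovial lining coat the joint surface with lubricin, the glycoprotein product of Prg4, and with hyaluronan. Hyaluronan is spun out at the plasma membrane by the synthases of the Has family from UDP-glucuronic acid, which Ugdh makes, and UDP-N-acetylglucosamine. On the cell surface it is held by the receptor CD44 and in the matrix it is modified by TSG-6, the product of Tnfaip6, an inflammation-induced protein that transfers heavy chains onto it. It is cut by hyaluronidases, of which HYAL2 sits at the cell surface and HYAL1 acts in lysosomes, and by CEMIP, which fibroblasts need for hyaluronan breakdown. CD55, decay-accelerating factor, restrains complement on the cell surface and is a marker of lining fibroblasts.

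The labelled cell type had its markers: 9 of 9 fibroblast genes were above 1 FPKM in every library, with summed levels of 11328.2 to 11560.1 FPKM in co-culture, 10232.4 to 10420.2 with IL-1β alone and 12352.1 to 12884.4 in control. Il6, a cytokine gene that IL-1β induces, read 104 to 109 FPKM in co-culture, 1025 to 1109 with IL-1β alone and 36.7 to 41.9 in control. Summed macrophage and leukocyte markers (9 genes, of which 3 were above 1 FPKM in every library) were 27.7 to 29.7 FPKM in co-culture, 37.5 to 42.2 with IL-1β alone and 27.2 to 29.3 in control. None of these 9 was at 0 in all libraries. The pan-leukocyte gene Ptprc averaged 0.0733, 0.0667 and 0.103 FPKM in the same order of groups. The 3 above 1 FPKM in every library did not move together. Cd14 averaged 15.85, 22.66 and 13.46 FPKM and Cd68 2.19, 4.77 and 2.30 FPKM in that order. Lyz2 was lower with IL-1β than in control, at 7.76, 7.99 and 10.65 FPKM. Endothelial markers summed to at most 1.3 FPKM and keratinocyte markers to at most 2.2 FPKM in any library, while mural cell markers summed to 25.4 to 27.1 FPKM in co-culture, 10.3 to 12.3 with IL-1β alone and 28.8 to 29.9 in control. Across all genes the medians of the log2 fold changes lay between -0.04 and 0.06, and the library sums of FPKM between 679774 and 741810.

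With IL-1β, the lubricin gene, the lining marker Cd55 and the hyaluronan binders Cd44 and Tnfaip6 were higher, while the synthase genes Has1 and Has2 were lower. Of the 10 genes, 6 were higher (Prg4, Cd55, Ugdh, Cd44, Tnfaip6 and Cemip) and 3 lower (Has1, Has2 and Hyal1) at a limma adjusted p under 0.05, where 20.5% of all genes were higher and 31.2% lower. Of the 6, the 4 genes Cd55, Prg4, Tnfaip6 and Cd44 rose by at least 1 on the log2 scale, a size reached upward by 2.74% of all genes. These counts are descriptions and include Has1, whose place among the genes tested rests on its control level. The median log2 fold change of the 10 was 0.37, against -0.04 over all genes tested.

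Prg4 stood at 301, 297 and 294 FPKM in the IL-1β libraries, against 96.8, 95.8 and 95.8 FPKM in control. The 2 sets of libraries lay far apart and each varied little. The log2 fold change, here and below on the log2(FPKM + 1) scale with its standard error from the fit, was 1.62 ± 0.03 (limma adjusted p = 5.1e-13), the 145th highest of 11372. Cd55 read 107, 104 and 111 FPKM with IL-1β, against 26.6, 25.5 and 27.8 FPKM in control. It had the largest rise of the 10 genes, with a log2 change of 1.97 ± 0.04 (limma adjusted p = 2.3e-12) and a ratio of mean FPKM of 4.02. In RNA of a whole culture, a change in the share of cells that express a gene and a change in RNA per cell cannot be told apart.

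The hyaluronan binders followed. Tnfaip6 read 76.6, 81.1 and 82.8 FPKM with IL-1β and 26.9, 26.0 and 31.4 FPKM in control, a log2 change of 1.48 ± 0.06 (limma adjusted p = 2.1e-09). Cd44 read 285, 289 and 291 FPKM with IL-1β and 136, 135 and 138 FPKM in control, a log2 change of 1.08 ± 0.03 (limma adjusted p = 1.1e-11). Neither gene had overlapping groups. Leukocytes also express Cd44, and the summed macrophage and leukocyte markers given above were higher with IL-1β, although Lyz2 among them was lower. The part of leukocytes in this rise was not tested.

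Both synthase genes went the other way, by smaller amounts. Has2, which makes long hyaluronan chains, read 29.0, 28.4 and 29.5 FPKM with IL-1β and 34.0, 31.8 and 32.7 FPKM in control, a log2 change of -0.17 ± 0.04 (limma adjusted p = 0.002). The groups did not overlap, but the ratio of mean FPKM was only 0.883. Has1 read 0.51, 0.77 and 0.6 FPKM with IL-1β and 2.11, 1.38 and 1.33 FPKM in control. Its log2 fold change was -0.67 ± 0.12 (limma adjusted p = 0.00048), which became -1.22 with a pseudocount of 0.1 in place of 1, since the pseudocount weighs most on low genes. With no filter on low values, so that its control level played no part in its being tested, the limma adjusted p was 0.0015. Without control replicate 1, its mean over the other 8 libraries fell under the filter. The fit without that library and with no filter, chosen after seeing the data, gave -0.54 with IL-1β against control (limma adjusted p = 0.0017). Ugdh, the UDP-glucose dehydrogenase gene, was high in every library and was modestly higher with IL-1β. It read 260, 264 and 270.4 FPKM with IL-1β against 228, 231.7 and 240.3 FPKM in control, a log2 change of 0.18 ± 0.03 (limma adjusted p = 0.00048, but 0.051 after quantile normalization).

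Among the 3 genes of breakdown, Cemip rose and kept its call under every alternative run. It read 45.2, 42.6 and 44.4 FPKM with IL-1β and 30.4, 29.5 and 29.0 FPKM in control, a log2 change of 0.56 ± 0.04 (limma adjusted p = 8.9e-08). Hyal1 read 5.02, 5.11 and 5.35 FPKM with IL-1β and 5.66, 5.80 and 6.31 FPKM in control, a log2 change of -0.17 ± 0.06 (limma adjusted p = 0.024). That call was lost without IL-1β replicate 1 (adjusted p = 0.071), IL-1β replicate 2 (0.06) or control replicate 3 (0.097), and after median-of-ratios scaling (0.076) or quantile normalization (0.063). Hyal2 read 28.4, 30.2 and 25.01 FPKM with IL-1β and 24.9, 27.1 and 22.5 FPKM in control. Its groups overlapped, and the 95% interval of its log2 fold change ran from -0.04 to 0.36 (limma adjusted p = 0.16).

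**Figure D1:**
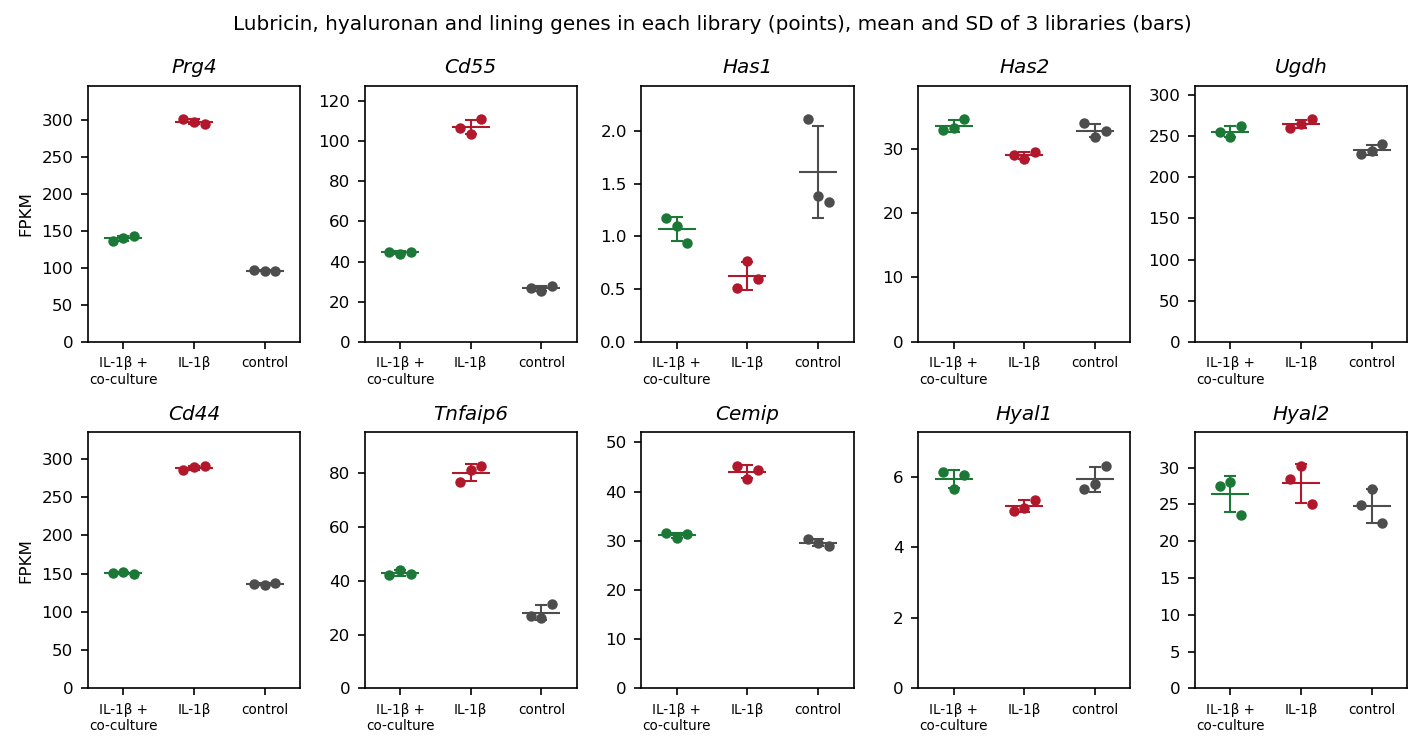
FPKM of each gene (y axes, from 0) in the 3 groups: IL-1β with co-culture, IL-1β alone and control. Points are libraries and bars the mean and SD of 3. Prg4, Cd55, Cd44, Tnfaip6 and Cemip are highest with IL-1β alone, Has1, Has2 and Hyal1 are lowest there, and the groups of Hyal2 overlap.

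The bases before the annotated starts of the 4 genes that rose most are shown because these genes moved together with IL-1β, a cytokine that acts through NF-kB, AP-1 and C/EBP factors. They are the 250 bases upstream in the RefSeq promoter table of build GRCr8, 5′ to 3′ on the strand of the gene, at chr13:65054226-65054475 (minus strand), chr13:44438102-44438351 (minus strand), chr3:56911148-56911397 (plus strand) and chr3:109699425-109699674 (minus strand), and capitals mark matches to AP-1 (TGANTCA) or C/EBP (TTNNGNAA).
Prg4: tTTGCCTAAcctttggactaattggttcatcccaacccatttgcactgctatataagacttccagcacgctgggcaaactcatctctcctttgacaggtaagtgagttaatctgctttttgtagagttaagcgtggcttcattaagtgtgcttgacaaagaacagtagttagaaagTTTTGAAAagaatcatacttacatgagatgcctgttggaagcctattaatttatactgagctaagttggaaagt
Cd55: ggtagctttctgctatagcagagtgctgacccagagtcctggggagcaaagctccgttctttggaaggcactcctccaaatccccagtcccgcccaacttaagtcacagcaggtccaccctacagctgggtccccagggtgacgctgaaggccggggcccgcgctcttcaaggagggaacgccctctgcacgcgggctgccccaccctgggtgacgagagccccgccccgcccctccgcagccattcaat
Tnfaip6: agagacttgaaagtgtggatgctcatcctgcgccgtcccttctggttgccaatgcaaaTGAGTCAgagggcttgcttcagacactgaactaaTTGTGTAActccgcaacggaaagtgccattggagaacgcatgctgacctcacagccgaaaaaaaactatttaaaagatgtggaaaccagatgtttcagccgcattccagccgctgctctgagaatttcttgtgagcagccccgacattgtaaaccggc
Cd44: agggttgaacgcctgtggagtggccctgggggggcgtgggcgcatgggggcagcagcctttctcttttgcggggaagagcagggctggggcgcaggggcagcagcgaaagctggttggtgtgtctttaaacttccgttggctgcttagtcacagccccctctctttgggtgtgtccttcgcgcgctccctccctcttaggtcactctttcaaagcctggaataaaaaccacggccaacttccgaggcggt
The table gave a window, 250 bases before to 50 after 1 start, for 9 of the 10 genes, and both strands were searched. Tnfaip6 held the AP-1 letters at positions -192 to -186 and the C/EBP letters at -158 to -151, counted from the start; Prg4 held C/EBP letters in 2 places, the nearer at -74 to -67. No AP-1 or C/EBP match lay in the other 7 windows, and the 10-letter kappa-B consensus matched in 0 of the 9. Of 33469 windows of the same length in the table, 7.5% held the kappa-B consensus, 7.3% AP-1 and 41.3% C/EBP. AP-1 and C/EBP overlapped nowhere in these windows. The matches are letters in 1 annotated window and not measured sites.

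Co-culture was next set against IL-1β alone, which asks how the IL-1β profile differed beside dermal fibroblasts. Prg4, Cd55, Cd44, Tnfaip6 and Cemip were lower in co-culture and Has1, Has2 and Hyal1 higher. That made 5 of the 10 genes lower and 3 higher, where 16.7% of all genes were lower and 33.3% higher. Prg4 and Cd55 fell by at least 1 on the log2 scale, a size reached downward by 1.88% of all genes. The median log2 fold change of the 10 was -0.28, against 0.06 over all genes. The same IL-1β libraries enter this comparison and the one before it, on opposite sides.

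Prg4 read 137, 141 and 142 FPKM in co-culture, and its log2 fold change from IL-1β alone was -1.08 ± 0.03 (limma adjusted p = 4.2e-11). Cd55 read 44.8, 43.9 and 44.9 FPKM in co-culture, a log2 change of -1.25 ± 0.04 (limma adjusted p = 2.6e-10). Both were under all IL-1β libraries and above all control libraries. Cd44 read 150, 152 and 149 FPKM in co-culture (log2 fold change -0.93 ± 0.03, limma adjusted p = 7.5e-11), and Tnfaip6 read 42.0, 44.0 and 42.4 FPKM (log2 fold change -0.89 ± 0.06, limma adjusted p = 3.3e-07). Cemip read 31.5, 30.5 and 31.4 FPKM in co-culture, a log2 change of -0.49 ± 0.04 (limma adjusted p = 5e-07). Cd44, Tnfaip6 and Cemip were also below every IL-1β library. These statements describe single genes, and the share of all genes with groups so apart is not given.

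Has2 read 32.8, 33.2 and 34.6 FPKM in co-culture, all above the IL-1β libraries, with a log2 change of 0.20 ± 0.04 (limma adjusted p = 0.00073). Has1 read 1.17, 1.1 and 0.94 FPKM in co-culture, again above every IL-1β library, with a log2 change of 0.35 ± 0.12 (limma adjusted p = 0.026) that was 0.70 with the pseudocount of 0.1. The Has1 call was lost without co-culture replicate 1 (adjusted p = 0.081), co-culture replicate 2 (0.064), IL-1β replicate 1 (0.089) or IL-1β replicate 3 (0.064), and after quantile normalization (0.061). Hyal1 read 6.14, 5.66 and 6.05 FPKM in co-culture, a log2 change of 0.17 ± 0.06 (limma adjusted p = 0.021). Its call was lost without co-culture replicate 1 (0.074), co-culture replicate 3 (0.061), IL-1β replicate 1 (0.064) or IL-1β replicate 2 (0.055), and after median-of-ratios scaling (0.097) or quantile normalization (0.071). Ugdh, at 255, 248.8 and 262 FPKM in co-culture, and Hyal2, at 27.6, 28.1 and 23.6 FPKM, overlapped with IL-1β alone, and the 95% intervals of their log2 fold changes were -0.12 to 0.02 and -0.27 to 0.12. After median-of-ratios scaling Ugdh was lower by the test, with a log2 change of -0.12 (limma adjusted p = 0.006).

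**Figure D2:**
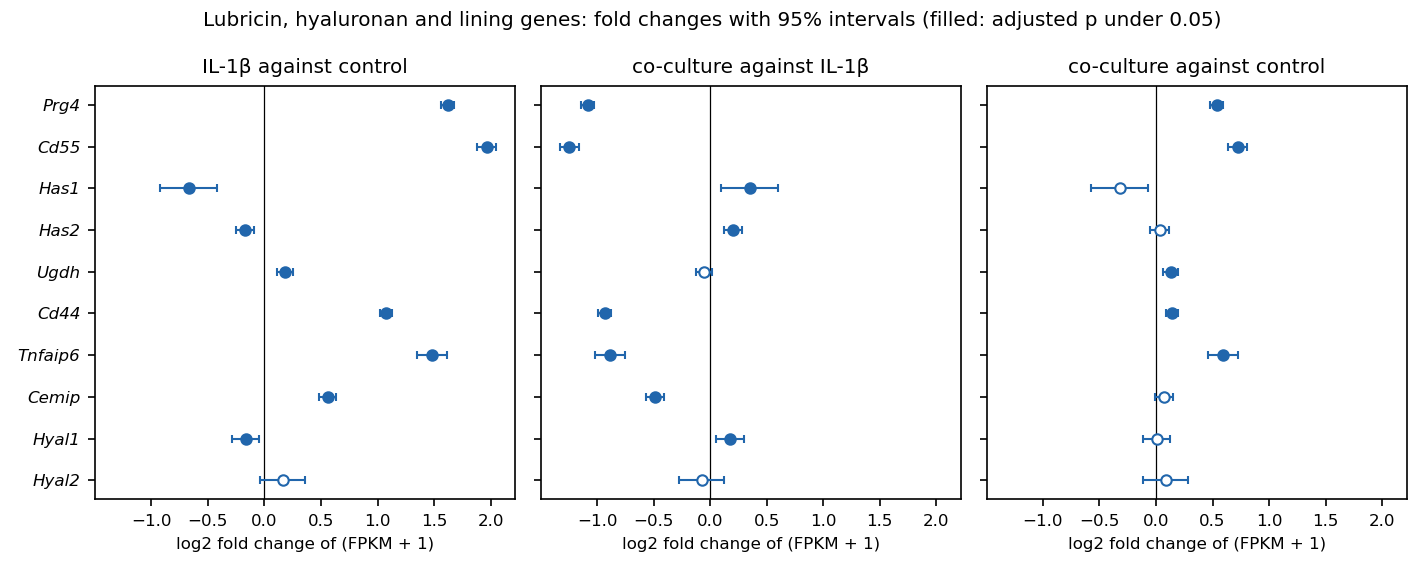
Log2 fold changes of FPKM + 1 (x axes) of the 10 genes in the 3 comparisons, with 95% intervals from the limma fit; filled points had an adjusted p under 0.05. The largest changes are those of Cd55, 1.97 with IL-1β and -1.25 in co-culture against IL-1β alone.

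Against control, co-culture left 5 of the 10 genes higher (Prg4, Cd55, Ugdh, Cd44 and Tnfaip6) and 0 lower by the adjusted limma test, where 12.4% of all genes were higher and 7.91% lower. Has1 had a lower level in co-culture but did not pass, and its place among the genes tested rests on its control level. This comparison shares libraries with each of the other 2. Cd55 had a log2 change of 0.72 ± 0.04 (limma adjusted p = 1.7e-07), Tnfaip6 of 0.59 ± 0.06 (limma adjusted p = 3.8e-05) and Prg4 of 0.54 ± 0.03 (limma adjusted p = 1e-07), and in each the co-culture libraries were all above the control libraries. Cd44 differed by far less, 0.14 ± 0.03 (limma adjusted p = 0.0019). Ugdh had a log2 change of 0.13 ± 0.03 (limma adjusted p = 0.014), a call lost without co-culture replicate 3 (0.054), control replicate 1 (0.063) or control replicate 2 (0.051) and after quantile normalization (0.19).

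The other 5 genes did not pass in this comparison, with intervals that differed in width. For Has2 the 95% interval of the log2 fold change was -0.05 to 0.11, for Cemip -0.01 to 0.15, for Hyal1 -0.12 to 0.13 and for Hyal2 -0.11 to 0.28. Has1, with all co-culture libraries below all control libraries, had an interval of -0.58 to -0.07 and an adjusted limma p of 0.075. Among its control libraries replicate 1, at 2.11 FPKM, stood above the other two. Without it, in the fit with no filter, the log2 change was -0.19 (limma adjusted p = 0.26).

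The part of the IL-1β change still present in co-culture was described for the 6 genes whose log2 change with IL-1β was at least 0.5 in size. It is the co-culture minus control difference over the IL-1β minus control difference of mean log2(FPKM + 1), with the SD over the 3 co-culture libraries, and it has no test because both differences use the control libraries. Tnfaip6 kept 40% ± 2.4, Cd55 36.6% ± 0.9 and Prg4 33.1% ± 1.9. Cd44 kept 13.2% ± 1.2 and Cemip 12.5% ± 4.1. Has1 kept 47.9% ± 12.4, and 34.9% without control replicate 1. The lubricin gene, the lining marker and the hyaluronan binder Tnfaip6 lay higher between the control and IL-1β levels than the hyaluronan receptor Cd44 and the CEMIP gene did.

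Within a library, hyaluronan synthase RNA was nearly all Has2. It made up 96.1% to 96.9% of the summed FPKM of Has1, Has2 and Has3 in co-culture, 97.0% to 97.8% with IL-1β alone and 93.9% to 95.6% in control. Has3, a synthase gene outside the 10, stayed at or under 0.18 FPKM in every library. Has1 made up 2.63% to 3.42%, 1.72% to 2.63% and 3.89% to 5.83% of the sum in the same order of groups, lowest with IL-1β alone and highest in control.

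The RNA of hyaluronan breakdown genes had a different make-up in each group. Tmem2, the older symbol of Cemip2, encodes a cell-surface relative of CEMIP with a role in hyaluronan turnover, and is not among the 10 genes. It read 23.6, 23.4 and 22.5 FPKM in co-culture, 54.3, 52.6 and 53.2 FPKM with IL-1β alone and 14.5, 15.2 and 15.2 FPKM in control. Its log2 fold change was 1.77 ± 0.04 with IL-1β against control (limma adjusted p = 3.5e-12) and -1.17 ± 0.04 in co-culture against IL-1β (limma adjusted p = 2.6e-10). Of the summed FPKM of Cemip, Tmem2, Hyal1, Hyal2 and Hyal3, Tmem2 held 25.4% to 25.7% in co-culture, 39.3% to 40.6% with IL-1β alone and 18.2% to 19.6% in control. Cemip held 33.5% to 35.9%, 31.8% to 33.8% and 36.0% to 38.1% in that order, so that the Tmem2 share was above that of Cemip with IL-1β alone and below it in co-culture and control. The ratio of this sum to the summed synthases was 2.72, 2.64 and 2.45 in the co-culture libraries, 4.58, 4.57 and 4.34 with IL-1β alone and 2.20, 2.45 and 2.27 in control. The IL-1β libraries were highest, and co-culture and control met at 2.45. These are ratios of RNA levels, with no test, and say nothing of enzyme activity.

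**Figure D3:**
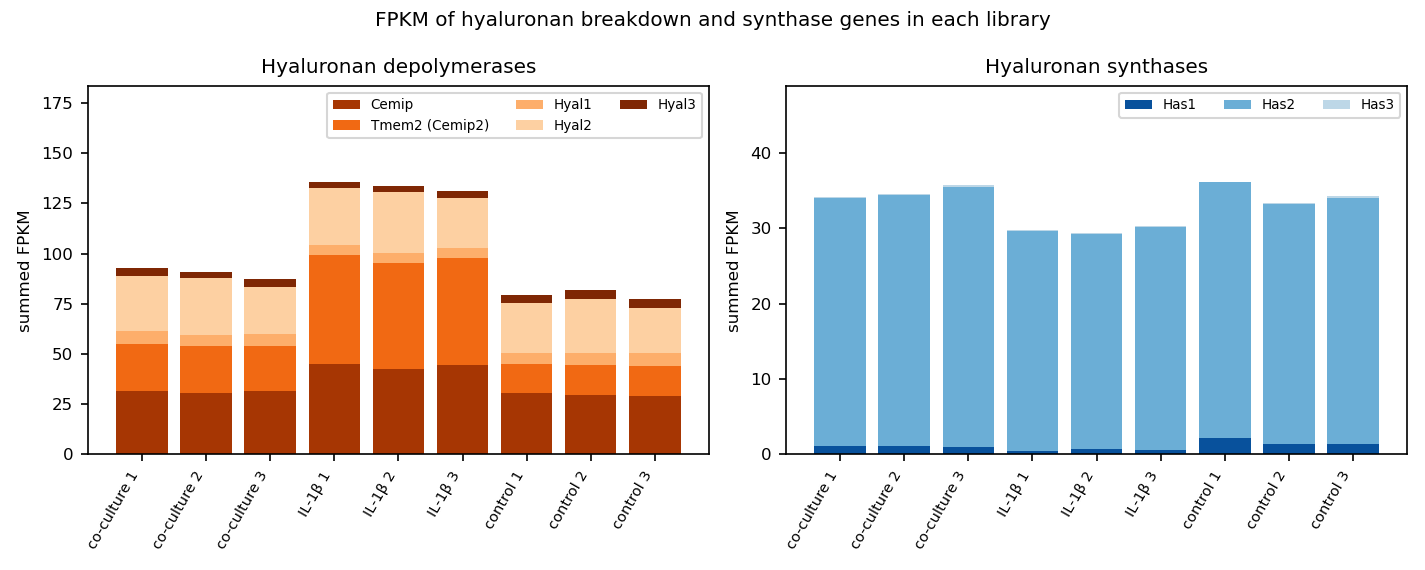
Summed FPKM (y axes, from 0) of 5 hyaluronan breakdown genes (left) and 3 synthase genes (right) in each of the 9 libraries. With IL-1β alone the left sums were 131 to 136 FPKM, against 77.7 to 81.8 in control, and the Tmem2 part was widest there; Has2 fills nearly all of each right bar.

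Related genes were read from 6 lists. Genes that supply, use or move hyaluronan precursors were split with IL-1β. Of 9, 4 were higher and 3 lower, where 20.5% of all genes were higher and 31.2% lower. Pgm1, among the higher, and Uxs1, among the lower, had adjusted limma p-values of 0.024 and each lost the call in 4 of 17 alternatives. Uxs1 uses UDP-glucuronic acid and does not make it. Uap1, which makes UDP-N-acetylglucosamine, read 126 ± 2.36 FPKM in co-culture, 229 ± 3.88 with IL-1β alone and 109 ± 2.80 in control (SD, n = 3 each). Its log2 fold change was 1.06 ± 0.03 with IL-1β against control (limma adjusted p = 6.5e-11) and -0.85 ± 0.03 in co-culture against IL-1β (limma adjusted p = 8.4e-10). Gnpnat1 (log2 fold change 0.47 ± 0.03) and Gfpt1 (0.34 ± 0.05), earlier in the same hexosamine route, were also higher with IL-1β. Other genes of that route were not: Pgm3 was lower (-0.20 ± 0.04, limma adjusted p = 0.00068), and Gfpt2 was at 0.01 ± 0.05 (limma adjusted p = 0.88). Ugp2, which makes the UDP-glucose that UGDH oxidizes, was lower too, at -0.31 ± 0.05 (limma adjusted p = 0.00019). In co-culture against IL-1β, 2 of the 9 were higher and 3 lower (33.3% and 16.7% of all genes), and against control 3 were higher (12.4% of all genes), of which 1, Pgm1, lost the call in 1 of 17 alternatives.

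Of the other genes of hyaluronan synthesis, breakdown and clearance, 5 of the 9 in the table passed the filter. Tmem2 was higher with IL-1β, as given above. Hyal3 was lower and had a log2 change of -0.35 ± 0.07 (limma adjusted p = 0.0016), whereas the lysosomal genes Hexa and Gusb did not pass. The clearance receptor gene Stab2 was listed at 0 in every co-culture and control library and at no more than 0.01 FPKM with IL-1β alone. Lyve1, another hyaluronan receptor, averaged 0.0533 FPKM in co-culture, 0.453 with IL-1β alone and 0.04 in control, all under the filter.

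Genes that bind hyaluronan or take part in its matrix went in both directions with large changes. Of 9 tested, 2 were higher with IL-1β and 7 lower, where 20.5% of all genes were higher and 31.2% lower, and their median log2 change was -0.49, against -0.04 over all genes. In co-culture against IL-1β, 7 were higher and 2 lower (33.3% and 16.7% of all genes), with a median of 0.37, against 0.06. The IL-1β call of Habp4 was lost in 7 of 17 alternatives. The co-culture call of Hapln3, a gene named after its values were seen, was lost in 9 of 16, and its groups overlapped. Ptx3, a pentraxin that takes part with TSG-6 in the hyaluronan matrix of the cumulus, read 248 ± 1.67 FPKM in co-culture, 631 ± 8.70 with IL-1β alone and 113 ± 1.14 in control. Its log2 fold change was 2.47 ± 0.03 with IL-1β (limma adjusted p = 8.5e-15) and -1.34 ± 0.03 in co-culture against IL-1β (limma adjusted p = 4.2e-12). The versican gene Vcan was also higher with IL-1β, at 0.56 ± 0.03. The cartilage aggrecan gene Acan and the link protein gene Hapln1 were lower with IL-1β, at -2.96 ± 0.05 and -1.82 ± 0.08, and higher in co-culture against IL-1β, at 2.15 ± 0.05 and 1.28 ± 0.08. Acan is also among the 6 chondrocyte markers. These summed to 78.2 to 81.4 FPKM in co-culture, 23.7 to 26.2 with IL-1β alone and 191.7 to 205.2 in control. Most of each sum was Col2a1, at 56.44, 18.11 and 156.9 FPKM on average in that order. Comp averaged 5.29, 2.29 and 12.11 FPKM, Sox9 3.57, 1.37 and 5.74 FPKM and Matn3 1.26, 0.803 and 1.19 FPKM. Matn1 was at 0 in every co-culture and control library and at no more than 0.04 FPKM with IL-1β alone. The part of chondrocytes in these changes was not tested. The receptor gene Hmmr read 41.3 ± 0.978 FPKM in co-culture, 31.9 ± 1.96 with IL-1β alone and 41.1 ± 1.48 in control.

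Other lining genes went in both directions. Of 5 tested, 2 were higher with IL-1β (Pdpn and Hbegf) and 3 lower (Vcam1, Cdh11 and Itga6), where 20.5% of all genes were higher and 31.2% lower. Pdpn, the podoplanin gene, read 209 ± 7.50 FPKM in co-culture, 348 ± 6.68 with IL-1β alone and 186 ± 1.24 in control. Itga6, an integrin subunit gene, read 29.8 ± 0.425 FPKM in co-culture, 8.79 ± 0.464 with IL-1β alone and 32.0 ± 0.618 in control, a log2 change of -1.75 ± 0.04 with IL-1β (limma adjusted p = 1.4e-11). Clic5 and Tspan15 were under 1 FPKM on average in each group. Of 5 tested sublining genes, against the same shares, 1 was higher with IL-1β, the chemokine gene Cxcl12 (1.85 ± 0.03, limma adjusted p = 1.9e-13), and 2 lower, Thy1 (-0.18 ± 0.03) and Sfrp1 (-0.84 ± 0.04). Thy1 was abundant throughout, at 611 ± 14.9 FPKM in co-culture, 669 ± 6.59 with IL-1β alone and 758 ± 19.8 in control.

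Among genes that restrain complement beside Cd55, Serping1 and Cd59 were higher with IL-1β, and Cr1l had an adjusted limma p of 0.74. Serping1, the C1 inhibitor gene, had a log2 change of 1.36 ± 0.05 with IL-1β against control and -0.62 ± 0.05 in co-culture against IL-1β (limma adjusted p = 3.9e-10 and 7.2e-07). Cd59, another membrane regulator, had a log2 change of 0.16 ± 0.04 with IL-1β (limma adjusted p = 0.0059).

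**Figure D4:**
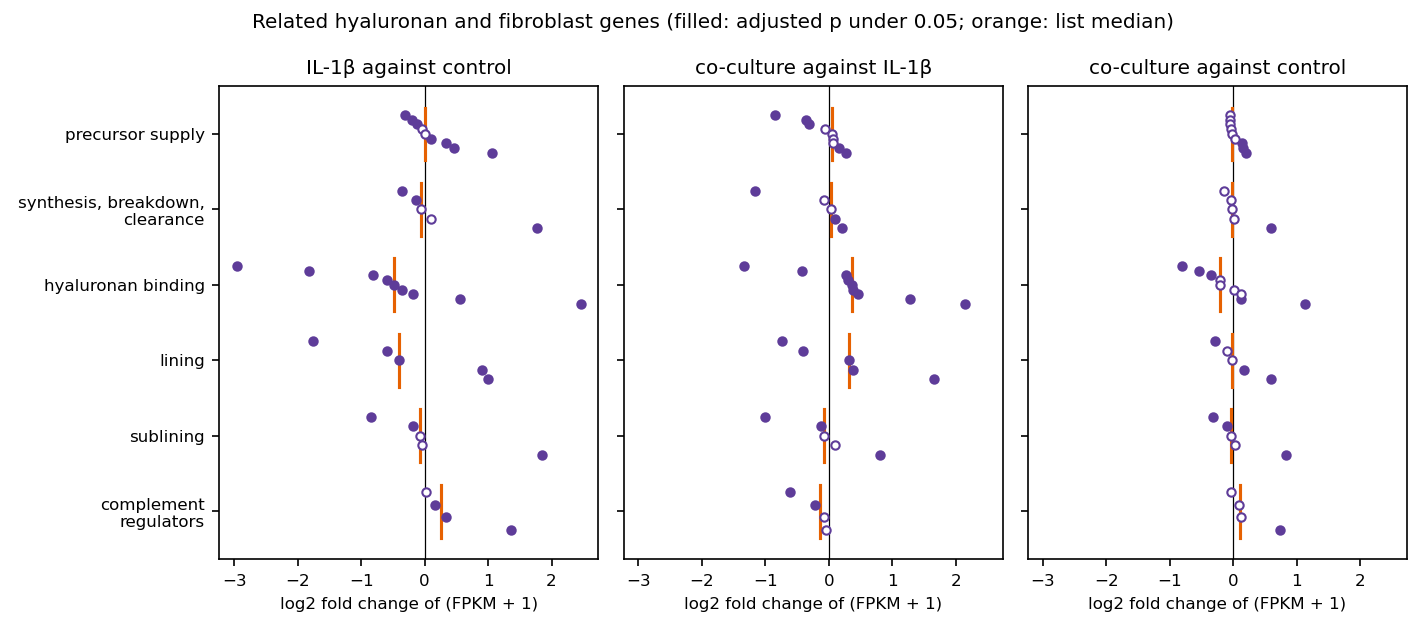
Log2 fold changes of FPKM + 1 (x axes) of the genes of 6 related lists (rows) in the 3 comparisons; each point is a gene, filled where the adjusted p was under 0.05, and orange lines are list medians. The hyaluronan-binding row, which also holds matrix genes such as Ptx3, spreads widest, from -2.96 (Acan) to 2.47 (Ptx3) with IL-1β.

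For 6 of the 10 genes, the nearest profiles among all genes tested were found by Euclidean distance over the 9 libraries of centred log2(FPKM + 1). The nearest to Prg4 were En1 (distance 0.16), Slc16a1 (0.17) and P2ry2 (0.20). Those nearest to Cd55 were Gsap (0.14), Sod2 (0.18) and Slc47a1 (0.22), and those nearest to Tnfaip6 were Ginm1 (0.17), Rab32 (0.21) and Postn (0.22). Cemip lay nearest to LOC100910506 (0.10), Procr (0.12) and Rnf149 (0.12), and Has2 to Safb2 (0.06), Emc1 (0.08) and Fstl1 (0.08). Has1 had no neighbour as close, with Itga4 at 0.32, Wwp2 at 0.33 and LOC684327 at 0.33. The last of these was matched by its gene ID to Itih5 in the hyaluronan-binding list, and it read 2.60 ± 0.342 FPKM in co-culture, 1.61 ± 0.143 with IL-1β alone and 3.60 ± 0.301 in control. The 9 libraries fall into 3 groups, so that a close profile mostly means similar group levels.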

How the data were processed

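Messenger RNA was sequenced in 9 libraries, 3 per group by their titles. The deposited values were FPKM with 2 decimals, per the file headers. The build named in the submitters' processing notes is GRCm38, which is mouse, although the rows carry rat gene IDs, 93.4% of them in the rat RefSeq table of GRCr8; which sequence was used could not be settled here, and the sources used here name no aligner, quantifier or annotation. If it was mouse, mapping losses could differ from gene to gene, which touches levels set side by side more than changes of 1 gene. No counts were used, so the depth is unknown, and the precision rests on 3 libraries per group.

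Genes with a mean of at least 1 FPKM were kept (11372). The fit used log2(FPKM + 1) in limma 3.58.1 (R 4.3.3), a mean for each group and trended, robust empirical Bayes moderation; two-sided p-values were adjusted by the Benjamini-Hochberg method over all genes kept, with a threshold of 0.05. The fit was tested on simulated data. Folds called ratios are of mean FPKM. The genes, the lists and the naming rule were chosen with earlier results of these data known. The naming rule covers the 10 genes, all measured genes of lists with up to 10, otherwise the 4 most abundant and the 4 with the smallest p, and the 3 nearest profiles of 6 genes; some genes of these lists are not reported here. Alternatives were another pseudocount, 2 filters, 2 scalings, fits of the 2 groups alone, plain moderation, the replicate number as a block, and leaving out each library.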

Additional observations from a re-analysis of the deposited data

How the results depend on the processing

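Prg4, Cd55, Cd44 and Tnfaip6 kept their direction and call in all 3 comparisons, and Cemip and Has2 in IL-1β against control, under every alternative run. Has1 kept its call with IL-1β in every alternative that gave it a value. Lost calls of the 10 genes, and those behind the list counts printed, stand beside the results. Over all genes, the split of higher and lower calls depended on scaling: 2330 and 3544 with IL-1β became 2961 and 2799 after median-of-ratios scaling, 3786 and 1901 in co-culture against IL-1β became 2702 and 2655, and 1408 and 899 in co-culture against control became 1008 and 1166 after quantile normalization; the cause was not tested. Genes of the 10 called higher in co-culture against IL-1β numbered 3, but 1 after quantile normalization and 1 to 3 with 1 library left out (1 without co-culture replicate 1 or IL-1β replicate 1). Related genes lower in co-culture against control numbered 6, where 7.91% of all genes were lower. They were 3 of 9 tested genes of the hyaluronan-binding list, 1 of 5 lining and 2 of 5 sublining genes, and 0 in the other lists. The 6 became 11 after quantile normalization and 4 to 8 with 1 library left out. The share left was 31.2% for Prg4, 35% for Cd55 and 11.3% for Cd44 after median-of-ratios scaling. With 1 library left out it was 35.7% to 37.6% for Cd55, 34.9% to 53.1% for Has1 and 37.9% to 43% for Tnfaip6. Hyal1 in co-culture against control was -0.007 after median-of-ratios scaling, -0.002 after quantile normalization and -0.021 to 0.046 with 1 library left out, and Hyal2 in co-culture against IL-1β was -0.148 to 0.001. No value could be had for genes under the filter, as none was, nor for Has1 at a filter of 5 FPKM or, with the filter of 1 FPKM, without control replicate 1.

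Replicate numbers are shared between groups in the titles, but nothing ties a number to an animal or a day. Deviations from the group means correlated by -0.046 to 0.189 between same-numbered libraries, above 0.1 in 1 of 9 pairs, and 11 of 18 matches were best with the own number. Each match was picked among the 3 libraries of another group. Each correlation was used from both of its libraries, so the matches are not independent and cannot settle whether numbers mark pairs. With a replicate block, genes of the 10 called higher with IL-1β numbered 7 rather than 6, as Hyal2 passed (adjusted p = 0.0037 from limma); its replicate 3 was the lowest library of each group.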

Other observations

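Chondroitin sulfate and heparan sulfate chains are built in part from the same UDP-glucuronic acid as hyaluronan. Of 19 tested genes that build or modify these chains, 6 were higher with IL-1β and 6 lower, where 20.5% of all genes were higher and 31.2% lower. The median log2 change of the 19 was -0.02. Of these calls, that of B4galt7 was lost in 11 of 17 alternatives, that of Chst15 in 7 of 16 and that of Chpf in 5 of 17; these 3 genes, Extl3 and Chpf2 were named after their values were seen. Chsy3, a chondroitin synthase gene, had the smallest p among them, at 11.5 ± 0.516 FPKM in co-culture, 32.6 ± 0.412 with IL-1β alone and 7.37 ± 0.646 in control (SD, n = 3 each). Its log2 fold change was 2.01 ± 0.06 with IL-1β against control (limma adjusted p = 7.1e-11) and -1.42 ± 0.06 in co-culture against IL-1β (limma adjusted p = 3e-09). Csgalnact1, which starts and extends chondroitin chains, was at 0.93 ± 0.04 with IL-1β and -0.60 ± 0.04 in co-culture against IL-1β, and its relative Csgalnact2 at -0.42 ± 0.04 and 0.31 ± 0.04 (limma adjusted p = 3.6e-06 and 6.1e-05). The sulfotransferase genes Chst11 and Chst12 were higher with IL-1β (0.77 ± 0.05 and 0.45 ± 0.06), and Ext2, a heparan sulfate polymerase gene, and Dse, the epimerase gene of dermatan sulfate, were lower (-0.27 ± 0.03 and -0.29 ± 0.03). In co-culture against IL-1β, 5 of the 19 were higher and 4 lower (33.3% and 16.7% of all genes), and against control 5 were higher (12.4% of all genes). The calls of Extl3 were lost in 12 and 11 of 17 alternatives in these 2 comparisons, that of Chpf2 against IL-1β in 1 of 17, and that of Chst12 against control in 6 of 17.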
